A study of Mus musculus with 12 samples.

Results

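The genes described here are 10 regulators of eosinophil commitment and maturation, taken as a list of symbols, out of 53801 genes in the count table. They are the transcription factor genes Gata1, Gata2, Cebpa, Cebpe, Spi1, Xbp1 and Irf8, the GATA cofactor gene Zfpm1 (FOG-1), the inhibitor of E proteins Id2 and the pseudokinase gene Trib1. All 10 were counted in every library and were tested in every comparison. Eosinophils arise in the bone marrow from granulocyte progenitors, in which GATA-1, PU.1 (the product of Spi1) and the C/EBP factors act together and their relative levels bias the cell towards the eosinophil, neutrophil, mast cell or erythroid fate. C/EBP epsilon then drives the late granule gene programme, FOG-1 must be lost for the eosinophil fate to proceed, and XBP1 keeps the secretory apparatus of the maturing cell intact. TRIB1 directs C/EBP alpha to the ubiquitin ligase COP1 and shapes eosinophil identity, while IRF8 favours monocytic and dendritic over neutrophilic differentiation and is also needed for normal eosinophil numbers.

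RNA was sequenced from eosinophils isolated from bone marrow and blood, with 3 libraries for each of 4 groups. The Atg5-knockout mice carried floxed Atg5 alleles together with eoCre, a Cre recombinase placed in the eosinophil peroxidase locus (Epx), so that recombination follows Epx activity and precursors before that stage may keep the gene. The control mice carried eoCre without floxed Atg5. Both genotypes carried the Il5 transgene, driven by the Cd3d promoter in T cells, so every library comes from a hypereosinophilic mouse and none from an animal with normal IL-5. Cells were enriched by antibody depletion of other leukocytes, among them those bearing CD8, CD90.2 or Ly6G, and blood was first cleared over a density gradient and its red cells lysed in water. The labels give no age and do not state what equal replicate numbers share, so p-values measure the spread between these samples.

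Between 18885052 and 30270166 reads were counted per library. Levels are CPM, a count scaled to a common library total with TMM factors over the 12 libraries, and levels per exon length (RPKM) were used to compare genes with each other. The 10 eosinophil markers examined took 7.93 to 10.1% of counts in bone marrow and 1.90 to 4.12% in blood, and Siglecf and Ccr3 were detected in every library. Among these markers the granule gene Prg2 had means of 45204 CPM in control bone marrow and 16279 CPM in control blood. Siglecf went the other way, at 442 and 850 CPM, as did Ccr3 at 992 and 1576 CPM. The summed share is of RNA and not of cells, whose purity the paper assessed by flow cytometry and stained cytospins. Control blood replicate 1 stood apart, with 14.6% of its counts on red cell genes against 0.138 to 1.42% in the other libraries. Blood replicate 1 of either genotype also held more B cell RNA, with Ms4a1 (CD20) at 160 CPM in Atg5-knockout and 87.2 CPM in control, while the other 10 libraries had at most 3.39 CPM. Bone marrow libraries carried Elane at 484 to 791 CPM and Mpo at 1025 to 1554 CPM, primary granule genes of immature granulocytes, and blood libraries had at most 1.36 and 9.27 CPM of these genes. Atg5 itself was 0.44 lower on the log2 scale in knockout bone marrow (SE 0.108, adjusted p = 0.157) and 0.0079 lower in knockout blood (SE 0.225), and a sum over all its exons does not check the deletion. The paper examined Atg5 by qPCR and the ATG5 protein by immunoblot in eosinophils from both tissues of these genotypes.

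Counts were summed over all exons of each gene, on GRCm38 as the count table gives it. The GATA genes and their cofactor lie with Gata1 (ENSMUSG00000031162) at chrX:7959260-7978071 on the minus strand, Gata2 (ENSMUSG00000015053) at chr6:88193891-88207032 on the plus strand and Zfpm1 (ENSMUSG00000049577) at chr8:122282141-122337251 on the plus strand. The C/EBP genes are Cebpa (ENSMUSG00000034957) at chr7:35119293-35121928 on the plus strand and Cebpe (ENSMUSG00000052435) at chr14:54710360-54712174 on the minus strand, and the PU.1 gene is Spi1 (ENSMUSG00000002111) at chr2:91082390-91115756 on the plus strand. The remaining genes are Id2 (ENSMUSG00000020644) at chr12:25093799-25097140 on the minus strand, Xbp1 (ENSMUSG00000020484) at chr11:5520659-5525893 on the plus strand, Irf8 (ENSMUSG00000041515) at chr8:120736358-120756694 on the plus strand and Trib1 (ENSMUSG00000032501) at chr15:59648350-59657099 on the plus strand.

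RefSeq promoter windows on GRCm38.p6 were held for 7 of the 10 genes. The 250 bases before the start are printed for Gata1, whose level did not separate the tissues, and for Gata2, Irf8 and Xbp1, whose levels did in Atg5-knockout eosinophils. Capitals mark the letters searched for on both strands, namely GAGGAA (a PU.1 core), TTGCNNAA or TTGCNNCAA (C/EBP), CCACG (a core of the element that XBP1 binds) and, for GATA factors, AGATAA with its variant AGATAG and likewise TGATAA with its variant TGATAG. The Gata1 window, chrX:7967911-7968160 on the minus strand, lies before the exon that starts the erythroid and eosinophil transcript and within the gene as the count table draws it.
Gata1: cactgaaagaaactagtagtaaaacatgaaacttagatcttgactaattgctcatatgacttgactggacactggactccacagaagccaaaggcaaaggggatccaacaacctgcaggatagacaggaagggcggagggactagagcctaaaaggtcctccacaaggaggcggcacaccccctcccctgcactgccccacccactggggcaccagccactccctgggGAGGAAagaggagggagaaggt
Gata2: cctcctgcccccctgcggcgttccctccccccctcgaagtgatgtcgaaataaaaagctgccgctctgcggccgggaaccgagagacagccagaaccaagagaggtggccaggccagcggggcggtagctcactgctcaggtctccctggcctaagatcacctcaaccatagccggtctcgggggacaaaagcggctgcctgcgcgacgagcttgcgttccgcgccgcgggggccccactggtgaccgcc
Irf8: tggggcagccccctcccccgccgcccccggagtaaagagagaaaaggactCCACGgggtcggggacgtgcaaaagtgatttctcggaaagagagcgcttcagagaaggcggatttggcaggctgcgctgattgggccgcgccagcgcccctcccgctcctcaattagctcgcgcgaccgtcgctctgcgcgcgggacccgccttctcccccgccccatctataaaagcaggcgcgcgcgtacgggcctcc
Xbp1: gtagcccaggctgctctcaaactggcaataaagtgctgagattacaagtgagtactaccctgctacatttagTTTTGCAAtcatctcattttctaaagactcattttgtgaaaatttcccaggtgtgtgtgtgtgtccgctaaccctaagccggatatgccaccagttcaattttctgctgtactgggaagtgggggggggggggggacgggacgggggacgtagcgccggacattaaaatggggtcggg

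The Gata2 window is chr6:88193641-88193890, the Irf8 window chr8:120736108-120736357 and the Xbp1 window chr11:5520391-5520640, all on the plus strand. The GAGGAA word of Gata1 begins 22 bases before the start and the C/EBP word of Xbp1 178 bases before it. Over the 9 windows of the 7 genes, GAGGAA was found in 1 and in 23.3% of all 32851 promoters, and the C/EBP words in 1 and in 11.1% of all. CCACG was found in 4 of the 9 (Irf8, Cebpa, Zfpm1 and the downstream start of Gata2) and in 28.3% of all promoters. The GATA words were in none of the 9 and in 26.5% of all. These matches are letters in a window and were not tested as sites.

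Per exon length, Cebpe, the late granulocyte factor, was the most abundant of the 10 genes in bone marrow, at 450 ± 37.8 RPKM in control (SD, n = 3) and 420 ± 27.4 in Atg5-knockout. Spi1, the gene of PU.1, followed at 170 ± 15 and 173 ± 8.08 RPKM. Gata1 was at 66.0 ± 5.12 and 54.9 ± 8.69 RPKM, and its cofactor gene Zfpm1 was the lowest at 3.62 ± 1.59 and 4.12 ± 0.333 RPKM. In control bone marrow the order was Cebpe, Spi1, Xbp1, Id2, Gata1, Gata2, Irf8, Cebpa, Trib1 and Zfpm1, and of the 9 pairs of neighbours 1 overlapped, Xbp1 with Id2. In Atg5-knockout bone marrow 2 pairs overlapped, the same pair and Irf8 with Gata2.

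In blood Spi1 stood first by its mean in both genotypes, at 356 ± 65.8 RPKM in control and 317 ± 29.2 in Atg5-knockout, ahead of Xbp1 at 240 ± 176 and 213 ± 83.3. Cebpe came next at 221 ± 68.6 and 212 ± 52.7 RPKM. Xbp1 overlapped both Spi1 and Cebpe in either genotype, so its place in the order was not settled beyond the spread. Trib1, ninth in bone marrow of both genotypes at 10.3 ± 0.466 and 9.93 ± 1.29 RPKM, stood sixth in blood at 32.1 ± 9.74 and 37.7 ± 8.78 RPKM. Of the 9 neighbouring pairs, 5 overlapped in control blood and 6 in Atg5-knockout blood.

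**Figure D1:**
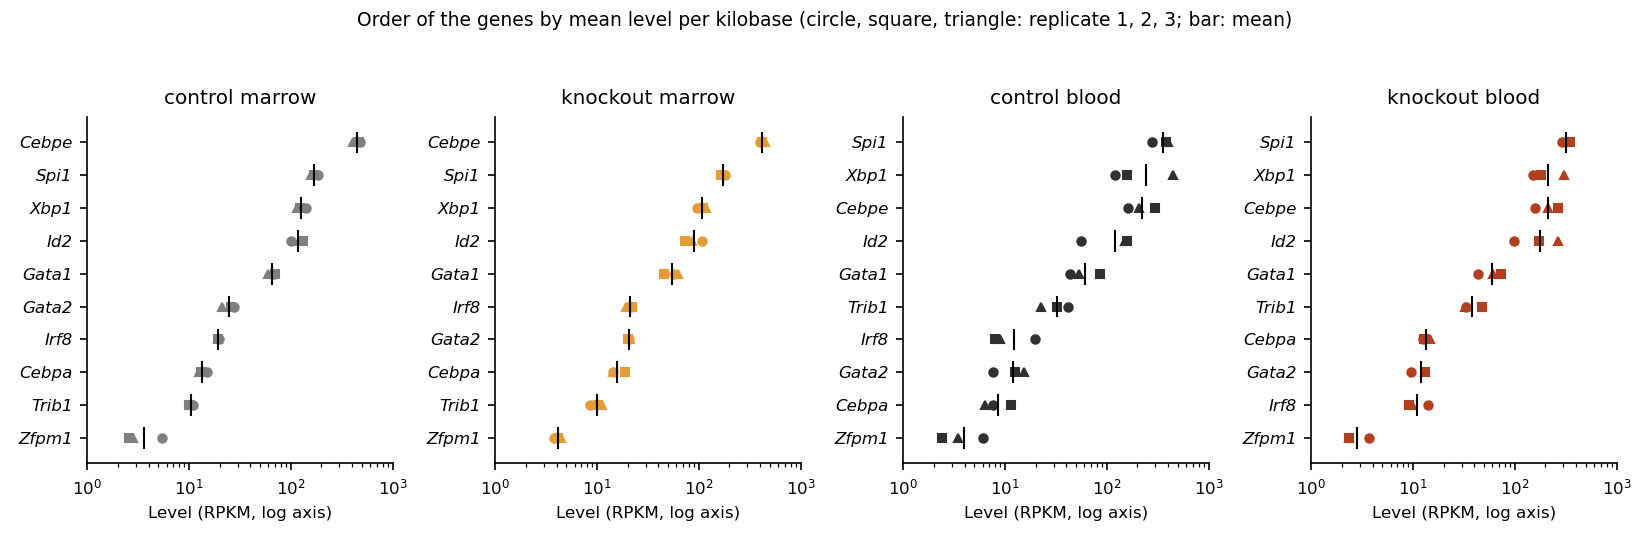
Mean level per kilobase of exon (RPKM, log axis) of the 10 genes in each group, ordered from the highest mean at the top; symbols are the 3 libraries and the bar is their mean. Cebpe leads in both bone marrow groups and Spi1 in both blood groups, and Zfpm1 is last in all 4.

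The comparison of Atg5-knockout with control eosinophils asked whether loss of the autophagy gene in the eosinophil lineage changes the transcripts of these regulators. None of the 10 genes passed edgeR's quasi-likelihood test in bone marrow (called below an adjusted p of 0.05), where 0.348% of all 13781 tested genes did. At an unadjusted p under 0.05 there were 3, Gata1, Gata2 and Id2, all with lower estimates in Atg5-knockout, where 1333 of the 13781 genes were under that limit, and DESeq2 called none of the 10 with 4 under that unadjusted limit. The libraries of the genotypes did not overlap for 1 of the 10 genes, Gata2, against 14.4% of all genes tested. The median log2 fold change of the 10 genes was -0.11 beside 0.0029 over all tested genes.

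Gata2, the progenitor and mast cell GATA factor, was at 150, 138 and 114 CPM in control bone marrow and at 111, 110 and 114 CPM in Atg5-knockout bone marrow. The lowest control library lay just above the highest knockout library, so the gap between the groups is narrow. The log2 fold change was -0.29 (95% interval -0.54 to -0.05, adjusted p = 0.429). Gata1 was at 166, 170 and 147 CPM in control and 138, 111 and 153 CPM in Atg5-knockout bone marrow, with a log2 fold change of -0.30 (interval -0.57 to -0.02, adjusted p = 0.49). Id2, which sequesters E proteins, was at 242, 321 and 292 CPM in control and 262, 179 and 207 CPM in Atg5-knockout, a log2 fold change of -0.43 (interval -0.76 to -0.10, adjusted p = 0.379). The groups overlapped for Gata1 through the third knockout library and for Id2 through the first. Without the filter on low counts, which adds genes with hardly any reads to the fit, Id2 passed the threshold at the same size (-0.43, adjusted p = 0.0272).

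The other 7 genes had log2 fold changes between -0.25 for Xbp1 (interval -0.51 to 0.01) and 0.20 for Cebpa (interval -0.08 to 0.49) in bone marrow. Spi1 gave the estimate closest to 0, with 500, 452 and 420 CPM in control and 489, 446 and 461 CPM in Atg5-knockout and an interval of -0.23 to 0.22. For Cebpe the interval was -0.37 to 0.10, for Irf8 -0.14 to 0.29 and for Trib1 -0.33 to 0.17. For these 4 genes, therefore, a change of more than 0.37 on the log2 scale lies outside the 95% interval. The interval of Zfpm1 was wider, from -0.35 to 0.67, and its control libraries ranged from 9.04 to 19.1 CPM.

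In blood none of the 10 genes passed the edgeR test between genotypes either, against 0.0371% of 13460 genes. Cebpa, the gene of the early granulocytic factor C/EBP alpha, was the 1 gene of the 10 with an unadjusted p under 0.05 and the 1 whose libraries did not overlap, against 347 of the 13460 genes and 7.58% of all genes. DESeq2 also called none and gave the same single gene under the unadjusted limit. Cebpa was at 33.1, 33.4 and 38.9 CPM in Atg5-knockout blood and at 20.1, 30.2 and 16.7 CPM in control blood. The log2 fold change was 0.67 (interval 0.10 to 1.24, adjusted p = 1), and 0.71 with the replicate number as a block (adjusted p = 0.524). An antisense transcript, Gm45091, shares 51 bases of the Cebpa exon and had at most 6 counts in any library.

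The blood intervals were wide. For Xbp1 the log2 fold change between genotypes was -0.15 with an interval of -1.25 to 0.94, for Id2 0.57 with -0.44 to 1.58, and for Irf8 -0.14 with -0.94 to 0.66. Spi1, at -0.15, had an interval of -0.61 to 0.31. Whether the genotypes differed more in blood than in bone marrow was tested as an interaction over all 12 libraries, in which edgeR called none of the 10 genes, with none under an unadjusted p of 0.05 by edgeR or by DESeq2. It called 0.00% of all 14712 genes. Id2 gave the largest estimate of the 10, with a difference of 0.95 on the log2 scale (interval -0.18 to 2.08, adjusted p = 0.942).

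**Figure D2:**
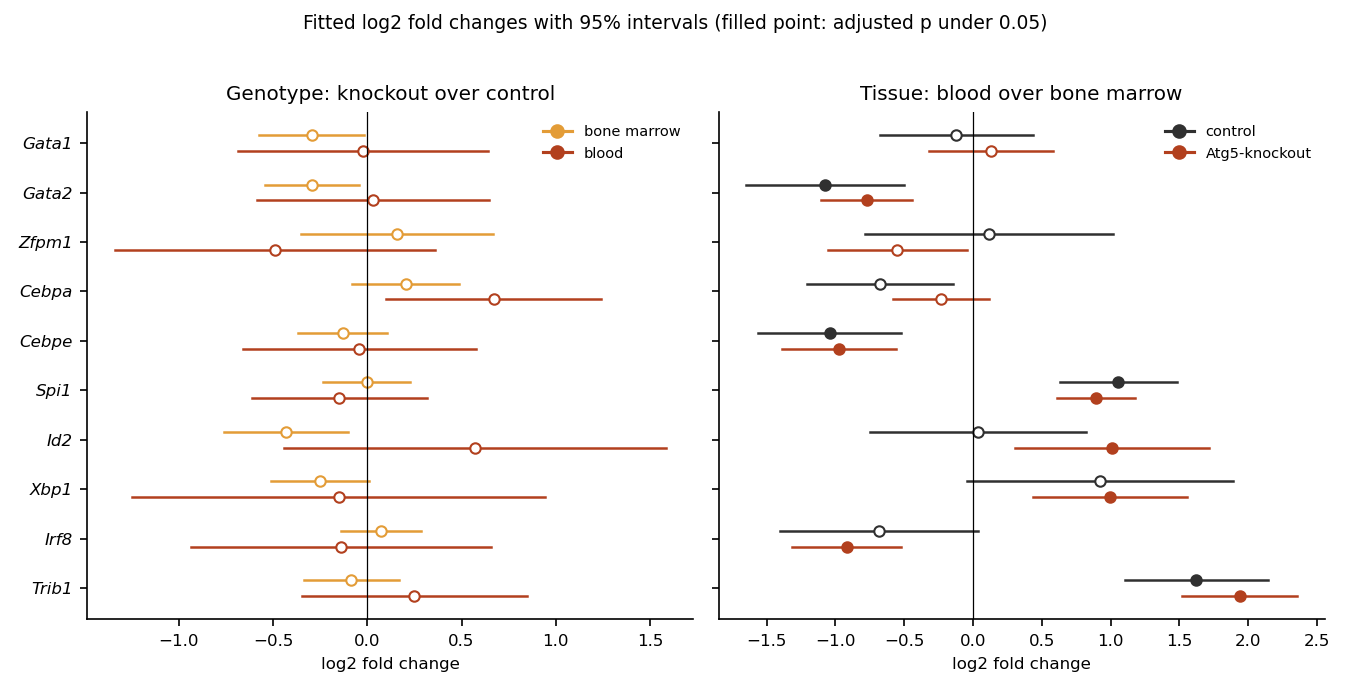
Fitted log2 fold changes (points) with 95% intervals (lines) for each gene, knockout over control on the left for bone marrow and blood, and blood over bone marrow on the right for control and Atg5-knockout mice; filled points passed an adjusted p of 0.05. No point is filled on the left, and on the right Gata2 and Cebpe lie below 0 and Spi1 and Trib1 above it in both genotypes.

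Blood and bone marrow differed for several of the regulators. In control mice edgeR called 4 of the 10 genes, Spi1 and Trib1 higher in blood and Gata2 and Cebpe lower, where 34.2% of 13669 genes were called, 2212 higher and 2466 lower. In Atg5-knockout mice it called 7, Spi1, Trib1, Id2 and Xbp1 higher and Gata2, Cebpe and Irf8 lower, where 47.6% of 13853 genes were called, 3256 higher and 3336 lower. Libraries of the tissues did not overlap for 5 of the 10 genes in control (50.1% of all genes) and for 7 of the 10 in Atg5-knockout mice (60.0% of all genes). The counts of non-overlap were close to those of all genes. The median log2 fold change of the 10 was -0.04 in control and -0.05 in Atg5-knockout mice, beside -0.0029 and -0.01 over all tested genes. In bulk RNA a lower level in 1 tissue cannot be told apart from fewer cells of a kind, and the comparisons in the 2 genotypes share no library.

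Trib1 showed the largest tissue difference of the 10 genes. It was at 67.8, 62.4 and 63.2 CPM in control bone marrow and at 261, 201 and 139 CPM in control blood. In Atg5-knockout mice it was at 53.3, 63.8 and 69.1 CPM in bone marrow and 205, 299 and 203 CPM in blood. Every blood library thus lay above every bone marrow library. The log2 fold change was 1.62 in control (SE 0.228, adjusted p = 0.00102) and 1.94 in Atg5-knockout eosinophils (SE 0.185, adjusted p = 6.54e-05), and the gene was called in all 11 alternative fits of each comparison. Over the 12 libraries the genes with the profile most like that of Trib1 were Klrb1a, Klre1 and Ccl3 (Pearson r of log2 CPM 0.99 for each, over 12 libraries that share the tissue difference). Klrb1a and Klre1 are receptor genes known from NK cells. The NK marker Ncr1 was at 4.03 to 48.8 CPM in blood and at most 0.599 CPM in bone marrow. The 10 T and NK cell markers, Ncr1 among them, summed to 0.00974 to 0.0389% of counts in blood. In bone marrow they summed to 0.00917 to 0.0130%, so the list as a whole overlapped between the tissues. The part of these cells in the Trib1 result was not tested.

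Spi1 was at 500, 452 and 420 CPM in control bone marrow and 756, 1036 and 1084 CPM in control blood. In Atg5-knockout mice the levels were 489, 446 and 461 CPM in bone marrow and 775, 933 and 853 CPM in blood. The tissues did not overlap in either genotype. The log2 fold changes were 1.06 (SE 0.188, adjusted p = 0.00325) and 0.89 (SE 0.126, adjusted p = 0.000541), called in all 11 alternative fits of each. Mvp, H2-T23 and Anxa6 followed Spi1 most closely over the 12 libraries (r = 0.99 each). The monocyte and dendritic cell markers, cells that also express PU.1, summed to 0.153 to 0.195% of counts in blood and 0.197 to 0.241% in bone marrow, and Csf1r within that list was at 785 to 919 CPM in blood and 246 to 298 CPM in bone marrow. Their part in the Spi1 result was not tested.

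Cebpe was at 595, 575 and 506 CPM in control bone marrow and 199, 367 and 256 CPM in control blood. In Atg5-knockout mice it was at 489, 516 and 557 CPM in bone marrow and 196, 327 and 264 CPM in blood. All 6 blood libraries lay below all 6 bone marrow libraries. The log2 fold changes were -1.04 (SE 0.229, adjusted p = 0.00865) and -0.97 (SE 0.182, adjusted p = 0.00239), and the call held in all 11 alternative fits of each. Pla2g15, Ctr9 and Gm26571 had the most similar profiles (r = 0.98, 0.97 and 0.97). Of 8 genes of secondary granules or host defence that C/EBP epsilon is known to control, 2 fell and none rose in control blood, and 5 fell and 1, Cybb, rose in Atg5-knockout blood, where Camp fell by 2.93 (adjusted p = 0.00532) and fell by 2.99 (adjusted p = 0.000196) on the log2 scale and Ltf fell by 1.33 (adjusted p = 0.048) and 1.63 (adjusted p = 0.00156), the control call of Ltf holding in 2 of 6 fits with a library left out. Of all tested genes 34.2% were called between the tissues in control and 47.6% in Atg5-knockout mice. Neutrophils also express these 8 secondary granule or host defence genes. The 11 neutrophil markers, Camp and Ltf among them, summed to 2.23 to 3.18% of counts in bone marrow and 1.19 to 2.13% in blood. Their part in these values and in the Cebpe result was not tested.

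Gata2 was at 150, 138 and 114 CPM in control bone marrow and 41.1, 67.9 and 83.0 CPM in control blood, and at 111, 110 and 114 CPM and 51.4, 71.3 and 70.6 CPM in Atg5-knockout mice. Here too all blood libraries were below all bone marrow libraries. The log2 fold changes were -1.07 (SE 0.253, adjusted p = 0.0115) and -0.77 (SE 0.145, adjusted p = 0.0024). Without control bone marrow replicate 1 the control value was -0.99 and no longer called (adjusted p = 0.0509). Gata2 and Cebpe followed each other over the 12 libraries (r = 0.93), and Gid4, 1700123O20Rik and Cpt2 were the closest genes to Gata2 (r = 0.97, 0.97 and 0.96). Basophils and mast cells also express Gata2, and their 11 markers summed to 0.0366 to 0.0473% of counts in bone marrow and 0.0144 to 0.0361% in blood, with Cpa3 at 30.8 to 45.0 CPM and 4.75 to 11.5 CPM. Their part in the Gata2 result was not tested.

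Gata1, by contrast, had overlapping levels in the 4 groups. It was at 166, 170 and 147 CPM in control bone marrow and 106, 211 and 130 CPM in control blood, with a log2 fold change of -0.12 (interval -0.68 to 0.44, adjusted p = 0.733). In Atg5-knockout mice it was at 138, 111 and 153 CPM in bone marrow and 106, 179 and 150 CPM in blood, a log2 fold change of 0.13 (interval -0.32 to 0.58, adjusted p = 0.618). The intervals leave room for a change of up to 0.68. Btk was the closest gene to Gata1 over the 12 libraries (r = 0.92), followed by Atp8b5 and Oit3 (r = 0.91 and 0.89).

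The balance of GATA-1 and PU.1 transcripts, which is known to matter for lineage choice, differed between the tissues within each library. The ratio of Gata1 to Spi1 per exon length was 0.366, 0.417 and 0.386 in control bone marrow and 0.156, 0.225 and 0.133 in control blood. In Atg5-knockout mice it was 0.311, 0.275 and 0.367 in bone marrow and 0.151, 0.212 and 0.194 in blood. No blood library reached the lowest bone marrow library. The ratio of Gata1 to Gata2 was 2.68 ± 0.210 in control and 2.66 ± 0.380 in Atg5-knockout bone marrow (SD, n = 3), and 5.36 ± 1.73 and 4.94 ± 0.546 in blood. These ratios follow from the fits of the single genes and carry no test of their own. Gata1 itself was not called in either tissue comparison.

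Zfpm1 was low throughout. It was at 19.1, 9.04 and 9.91 CPM in control bone marrow and 21.3, 8.36 and 12 CPM in control blood, with a log2 fold change of 0.12 (interval -0.78 to 1.02). In each of these groups replicate 1 stood well above the others. Without control blood replicate 1 the estimate was -0.33 and without control bone marrow replicate 1 it was 0.52. These libraries had the highest and the lowest share of red cell genes of the 12, 14.6 and 0.138%, and the part of red cells, which express Zfpm1, was not tested. In Atg5-knockout mice Zfpm1 was at 13.2, 14.6 and 15.5 CPM in bone marrow and 12.8, 8.22 and 8.23 CPM in blood, a log2 fold change of -0.55 (interval -1.06 to -0.05, adjusted p = 0.0694) that passed the threshold without knockout blood replicate 1 (-0.80, adjusted p = 0.00377). Phf2, Gm15122 and Piezo1 were closest to Zfpm1 (r = 0.96, 0.95 and 0.92).

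Cebpa was at 39.3, 34.2 and 33.0 CPM in control bone marrow and 20.1, 30.2 and 16.7 CPM in control blood. The tissues did not overlap, and the log2 fold change was -0.68 (SE 0.233, adjusted p = 0.0513), just outside the threshold. It was called in 5 of the 11 alternative fits, DESeq2 among them (adjusted p = 0.0383), and was -0.95 without control blood replicate 2 (adjusted p = 0.0109). In Atg5-knockout mice Cebpa was at 37.7, 49.8 and 37.6 CPM in bone marrow and 33.1, 33.4 and 38.9 CPM in blood, and the log2 fold change was -0.23 (interval -0.58 to 0.12). The tissue differences of the genotypes were not distinguishable, at 0.42 (interval -0.20 to 1.04, adjusted p = 0.942). Tyw1, Gon7 and Noa1 were the closest genes (r = 0.94, 0.92 and 0.92).

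Irf8 fell in Atg5-knockout blood, from 152, 155 and 134 CPM in bone marrow to 98.9, 64.0 and 68.4 CPM, a log2 fold change of -0.92 (SE 0.175, adjusted p = 0.00265) called in all 11 alternative fits. In control mice it was at 140, 136 and 136 CPM in bone marrow and 139, 55.9 and 63.3 CPM in blood. Here 1 blood library lay among the bone marrow libraries and the others far below them, and the log2 fold change was -0.68 (interval -1.40 to 0.04, adjusted p = 0.127). That library was control blood replicate 1, and without it the value was -1.21 (adjusted p = 0.000154). Replicate 1 was also the highest of the Atg5-knockout blood libraries, and both of these libraries carried the B cell RNA described above, from cells that express Irf8. The part of these cells in the Irf8 values was not tested. The difference between the genotypes was -0.26 (interval -1.12 to 0.59, adjusted p = 0.966). Slc7a5, Abi2 and Myo5a had profiles closest to Irf8 (r = 0.99, 0.97 and 0.97), and Spi1 ran opposite to it (r = -0.90).

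Id2 was higher in Atg5-knockout blood, at 237, 417 and 640 CPM against 262, 179 and 207 CPM in bone marrow. The lowest blood library lay below the highest bone marrow library, and the log2 fold change was 1.01 (SE 0.311, adjusted p = 0.0248). Leaving out 1 library ended the call in 4 of 6 cases, with 0.61 without knockout blood replicate 3 (adjusted p = 0.0752), 1.03 without knockout blood replicate 2 (adjusted p = 0.0609), 0.88 without knockout bone marrow replicate 2 (adjusted p = 0.102) and 0.97 without knockout bone marrow replicate 3 (adjusted p = 0.089). In control mice Id2 was at 242, 321 and 292 CPM in bone marrow and 135, 383 and 366 CPM in blood, a log2 fold change of 0.04 (interval -0.75 to 0.82). Without control blood replicate 1 the estimate was 0.39 (adjusted p = 0.0644). Upf3a, Kti12 and Vps29 were closest to Id2 (r = 0.97, 0.96 and 0.95), and Zfpm1 ran opposite to it (r = -0.85).

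Xbp1 was at 308, 359 and 384 CPM in Atg5-knockout bone marrow and 485, 590 and 998 CPM in Atg5-knockout blood, with no overlap and a log2 fold change of 0.99 (SE 0.247, adjusted p = 0.00959). The call was lost without knockout bone marrow replicate 1 (0.90, adjusted p = 0.0527) and in the fit of all 12 libraries (0.98, adjusted p = 0.0604), and without knockout blood replicate 3 the value was 0.63 and still called (adjusted p = 0.0106). In control mice it was at 459, 395 and 370 CPM in bone marrow and 387, 518 and 1437 CPM in blood, and the log2 fold change was 0.92 (interval -0.05 to 1.89, adjusted p = 0.126). The control estimate rested on blood replicate 3, being 0.15 without it (adjusted p = 0.606), whereas without replicate 1 it was 1.25 and called (adjusted p = 0.0108). Ube2g2, Abraxas2 and Ankrd48 were closest to Xbp1 (r = 0.97, 0.95 and 0.95). Gene counts do not separate the spliced from the unspliced Xbp1 transcript, whose ratio sets how much active factor is made.

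**Figure D3:**
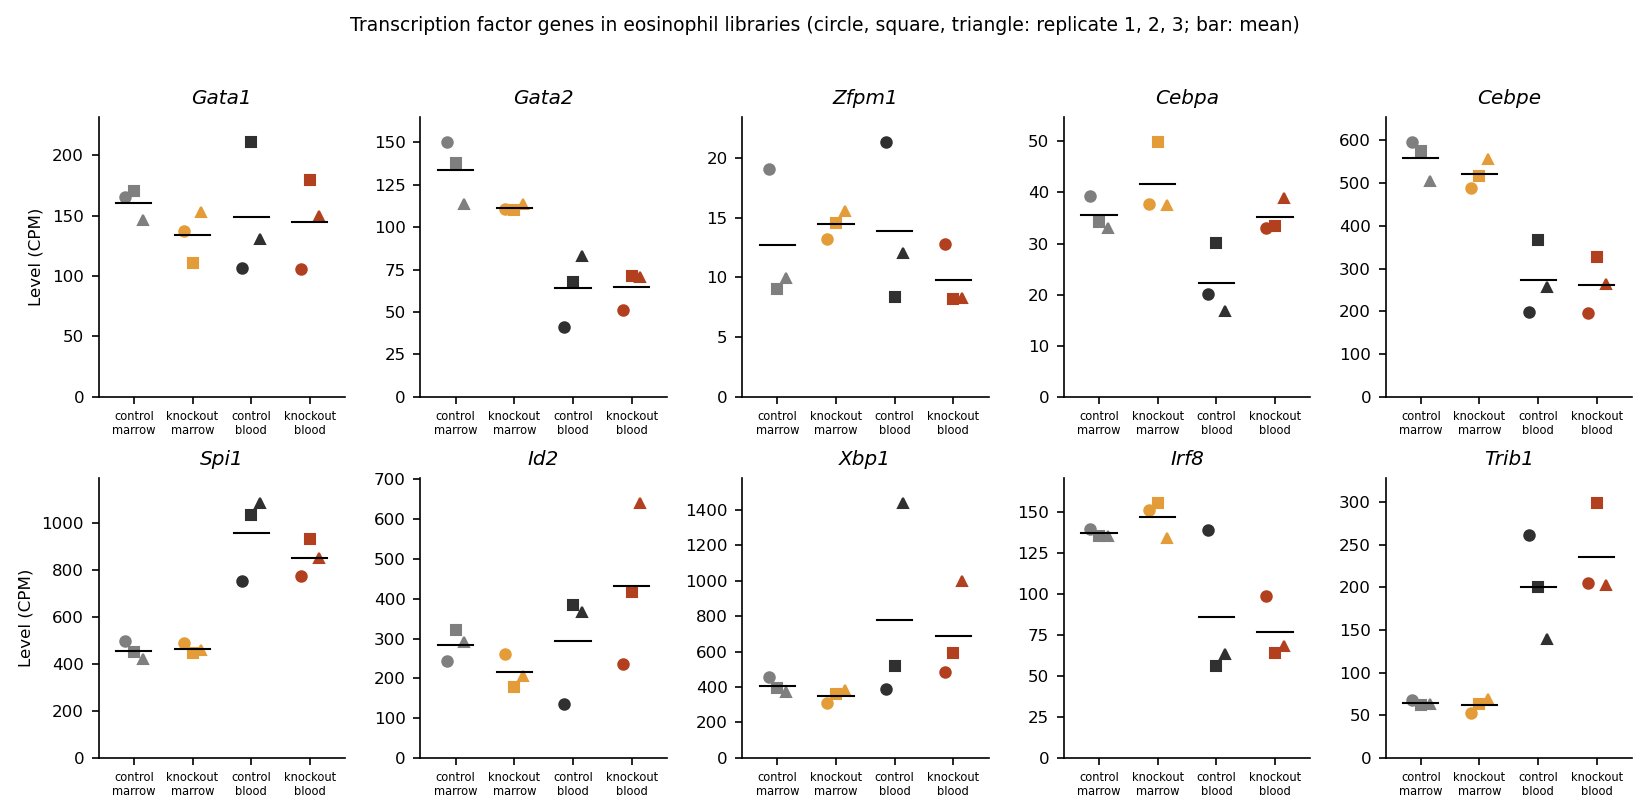
Level in CPM (linear axes from 0) of each gene in the 12 libraries, by genotype and tissue; circles, squares and triangles are replicates 1, 2 and 3 and bars are group means. Trib1 and Spi1 are higher and Cebpe and Gata2 lower in all 6 blood libraries than in all 6 bone marrow libraries, while Gata1 overlaps across the groups and Irf8 does so through control blood replicate 1.

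The blood libraries of the genotypes varied together by replicate number. Relative to the mean log2 CPM of its group, a gene's value had the same sign in the Atg5-knockout and control blood libraries of the same number in 25 of 30 cases, 9 of 10 for replicate 1, 9 of 10 for replicate 2 and 7 of 10 for replicate 3. In replicate 1 Id2 lay 0.75 below the mean in Atg5-knockout and 0.98 below it in control, Xbp1 0.44 and 0.77 below, Gata1 0.42 and 0.43 below and Cebpe 0.39 and 0.41 below. In the same libraries Zfpm1 lay 0.42 and 0.72 above the mean and Irf8 0.39 and 0.82 above it. Xbp1 in replicate 3 was 0.60 and 1.12 above the mean. Within a group the 3 values sum to 0, so the 30 cases are not independent. Over all genes kept by the filter the deviations also correlated between the genotypes by number (r = 0.50, 0.21 and 0.30). The share of equal signs over all genes was not computed, so the count is not shown to be particular to the 10 genes. The spread was also larger in blood, where the highest library exceeded the lowest by 3.71 times for Xbp1 and 2.84 times for Id2 in control mice, against 1.24 and 1.32 times in control bone marrow.

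**Figure D4:**
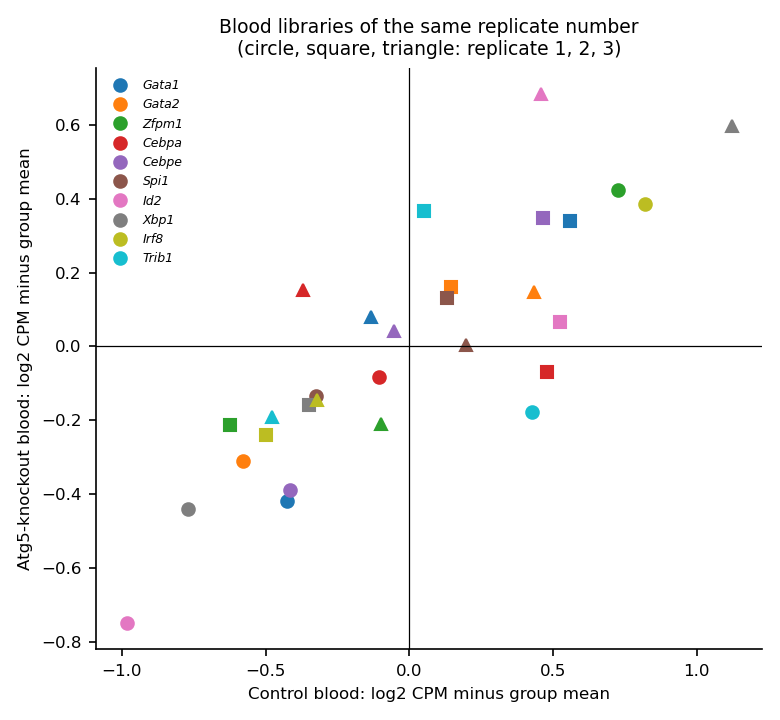
Log2 CPM minus the group mean in control blood (horizontal) and Atg5-knockout blood (vertical) for libraries of the same replicate number; each colour is a gene, and circles, squares and triangles are replicates 1, 2 and 3. Of the 30 points 25 lie at the lower left or upper right of the means, with Id2 in replicate 1 lowest and Xbp1 in replicate 3 far to the upper right.

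The partners and targets of these regulators were followed in lists of related genes. None of the 8 lists held a gene called by edgeR between the genotypes in bone marrow or blood, or in the test of the difference between tissues. In bone marrow the numbers of genes under an unadjusted p of 0.05 ran from 0 of 8 secondary granule genes to 10 of 22 cell cycle genes (1333 of 13781 over all genes). DESeq2 called 2 of the 14 eosinophil product genes, 2 of 43 genes of the C/EBP and ETS network, 1 of 19 GATA partners and 1 ID gene, Id1, where it called 192 over all genes. In blood the unadjusted numbers ran from 0 to 3 in a list (347 of 13460 over all genes) and DESeq2 called 1 gene, of the C/EBP and ETS network, and 23 over all genes. For the difference between tissues they ran from 0 to 6 (740 of 14712 over all genes) and DESeq2 called 1 gene, an eosinophil product gene, and 11 over all genes. All 22 cell cycle genes had higher estimates in Atg5-knockout bone marrow, with a median of 0.21, and 13 of them did not overlap between the genotypes, against 14.4% of all genes. None was called.

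Between tissues the GATA partners that were called were mostly lower in blood. In control 2 of 19 rose and 7 fell, and in Atg5-knockout mice 3 rose and 8 fell. Over all tested genes 34.2% were called in control and 47.6% in Atg5-knockout mice. These shares stand beside the counts of this list and of the lists below. Lmo2, the bridging protein of the GATA and TAL1 complex, fell by 1.5 (adjusted p = 0.00205) and 1.60 (adjusted p = 0.0001) on the log2 scale. Klf1, an erythroid factor, fell by 3.54 in control mice (adjusted p = 0.00798) and Tal1 by 2.38 in Atg5-knockout mice (adjusted p = 0.000478). Zeb2, a repressor active in myeloid cells, rose by 1.58 (adjusted p = 0.00274) and 1.91 (adjusted p = 2.36e-05). Gata3 was also called higher in both genotypes, at means of 2.30 and 2.50 CPM in blood against 0.0424 and 0.0587 CPM in bone marrow. Its bone marrow levels rest on very few reads, so the size of the change is uncertain.

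The C/EBP and ETS network went the other way, 16 of 41 genes rising and 5 falling in control blood and 22 rising and 4 falling in Atg5-knockout blood. Ets2 rose by 3.45 (adjusted p = 8.82e-06) and 4.14 (adjusted p = 3.68e-06). Cebpb, the C/EBP gene of activated and emergency myeloid cells, rose by 3.02 in control mice (adjusted p = 4.81e-05), from a mean of 55.9 to 457 CPM, whereas Myb, a factor of proliferating progenitors, fell by 4.19 (adjusted p = 1.41e-05). In Atg5-knockout mice the immediate early genes Egr1, Junb and Fos rose by 3.55 (adjusted p = 8.56e-07), 3.50 (adjusted p = 8.65e-07) and 4.38 (adjusted p = 1.3e-06). Of 5 E and ID protein genes, none rose and 1 fell in control and 1 rose and 1 fell in Atg5-knockout mice. Tcf4 fell in both genotypes, by 1.11 (adjusted p = 0.0451) and 0.67 (adjusted p = 0.0343), and Id3 rose in Atg5-knockout mice by 2.06 (adjusted p = 0.0243). With 1 library left out, the call of Tcf4 held in 1 of 6 fits in either genotype and that of Id3 in 2 of 6.

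Genes of the XBP1 axis, which serve protein folding and export in the endoplasmic reticulum, were lower in blood, where Xbp1 itself had higher estimates. Of 22 tested, 1 rose and 12 fell in control and 2 rose and 15 fell in Atg5-knockout mice, with medians of -0.57 and -0.58. Sdf2l1 fell by 1.83 (adjusted p = 0.000193) and 1.97 (adjusted p = 4.66e-05), and Pdia6, a disulfide isomerase gene, by 1.27 (adjusted p = 0.00122) and 1.52 (adjusted p = 6.57e-05). Ern1, which encodes the IRE1 enzyme that splices Xbp1, fell by 0.77 (adjusted p = 0.0302) and 0.96 (adjusted p = 0.00558). The 1 gene that rose in both genotypes was Dnajb9, a cochaperone, by 0.56 (adjusted p = 0.0481) and 1.13 (adjusted p = 0.00154), and without control blood replicate 1 no gene of the list was called higher in control mice. In the Tribbles and COP1 list 2 of 9 genes rose and none fell in control and 3 of 10 rose and 4 fell in Atg5-knockout mice. Here Cop1, the ligase partner of TRIB1, had log2 fold changes of -0.11 and 0.02 (adjusted p = 0.572 and 0.927), while Dda1 rose by 0.51 (adjusted p = 0.0302) and 0.54 (adjusted p = 0.00695), the control call holding in 1 of 6 fits with a library left out.

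Eosinophil product genes and cell cycle genes separated the tissues as well. Of 14 eosinophil product genes 3 rose and 7 fell in each genotype, where Epx fell by 2.70 (adjusted p = 0.000493) and 3.57 (adjusted p = 1.31e-05), Prg3 fell by 2.17 (adjusted p = 0.00105) and 2.62 (adjusted p = 6.66e-05) and Siglecf rose by 0.93 in control mice (adjusted p = 0.00318). The Cre allele sits in the Epx locus in both genotypes. All 22 cell cycle genes fell in blood in both genotypes, with medians of -3.98 and -4.38, Birc5 by 4.56 in control (adjusted p = 4.76e-06) and Cdk1 by 5.60 in Atg5-knockout mice (adjusted p = 3.41e-07). The bone marrow libraries thus held more transcripts of dividing and immature cells than the blood libraries. What part this had in the levels of Gata2, Cebpe and the other regulators was not tested. Without control blood replicate 1 the control fit called 5926 genes over all. Among them were 3 rising and 8 falling GATA partners and 19 and 8 genes of the C/EBP and ETS network. The XBP1 axis then had 0 rising and 12 falling, the E and ID proteins 0 and 1 and the Tribbles and COP1 list 3 and 0. For eosinophil products the counts were 3 and 7, for secondary granule genes 0 and 4 and for cell cycle genes 0 and 22.

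**Figure D5:**
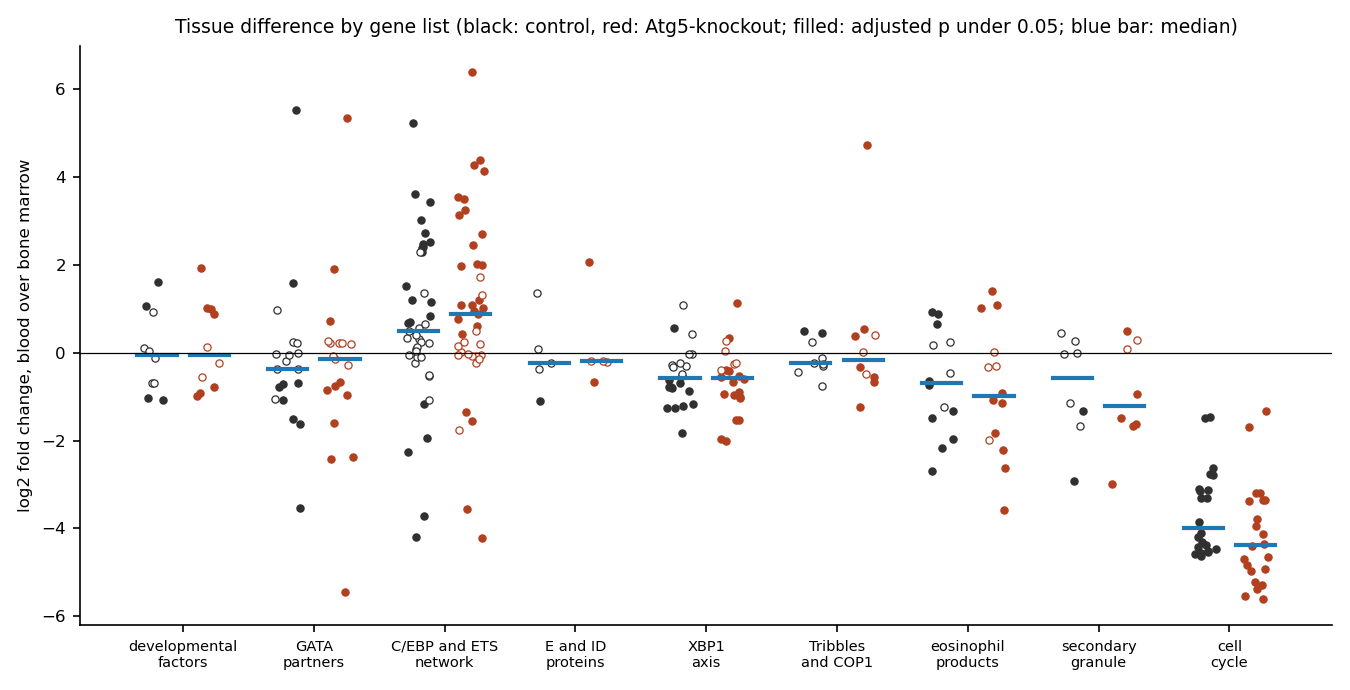
Log2 fold change of blood over bone marrow for the tested genes of each list, in control (black) and Atg5-knockout (red) mice; filled points passed an adjusted p of 0.05 and blue bars are medians. The cell cycle genes all lie below 0, the XBP1 axis and eosinophil products mostly below it, and the C/EBP and ETS network mostly above it.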

How the data were processed

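The authors aligned single-end reads from a stranded mRNA library with HISAT2 2.2.1 and deposited raw counts per gene from featureCounts 2.0.1, run without a strand option. Per the file headers the annotation was Ensembl release 92 on GRCm38, while the methods name another build, and the header was followed. The 53801 gene identifiers were given symbols from GENCODE, of which 49674 matched.

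Counts were tested with edgeR 4.0.16 in R 4.3.3, using TMM factors, filterByExpr (minimum count 10, minimum total 15), the quasi-likelihood test and Benjamini-Hochberg adjustment over all tested genes, at an adjusted p under 0.05. Each comparison used its 6 libraries, and the interaction of genotype and tissue used all 12. SE is the size of the log2 fold change divided by the square root of F. CPM and RPKM were computed from the counts with the same factors. Correlations used log2(CPM + 1). Alternatives were DESeq2 1.42.0, RLE factors, no filter, a replicate block, 1 fit of 12 libraries, a log2 fold limit of 2 and leaving out each library. The test was checked on simulated counts. For changes of 1 on the log2 scale between genotypes it recovered 71.6% in bone marrow and 13.5% in blood. Between tissues it recovered 34.7% of such changes in control and 51% in Atg5-knockout mice. For changes of 2 the shares were 97, 56.1, 73.9 and 81.2% in the same order. The simulations changed few genes, in control tissues 98 by 1 and 92 by 2 among 13402. In the data 34.2% of genes were called between control tissues and 47.6% between Atg5-knockout tissues. The adjustment was thus stricter in the simulation, and the shares between tissues do not give the power of those tests.

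The genes and lists were chosen with earlier results of these data known. Named from each list are at most 4 genes of lowest p per comparison and partners of the 10 genes. For each of the 10, the 3 genes of highest correlation are named. In blood, deviations of libraries with the same number correlated across genes between the genotypes (r = 0.50, 0.21 and 0.30). Libraries of different numbers were not compared, so whether the numbers pair these samples was not tested. With the number as a block, edgeR called 10 genes in blood in place of 5, and none of the 10 regulators. A marker and a sum that uses it are not reported here.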

Additional observations from a re-analysis of the deposited data

How the results depend on the processing

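Between genotypes none of the 10 genes was called in the alternatives, in bone marrow or blood, except that without the filter on low counts 1 was called in bone marrow, Id2. With a log2 fold change beyond 2 also required, 0 of the 10 were called between tissues in control and 0 in Atg5-knockout mice, and without the filter 7 in control. DESeq2 called 6 in control and 7 in Atg5-knockout mice. With the replicate block 6 were called in control, Cebpa (-0.72, adjusted p = 0.0272) and Irf8 (-0.81, adjusted p = 0.0322) added, and 7 in Atg5-knockout mice. In the comparisons other than that of the genotypes in blood, libraries of the same number had r from -0.15 to 0.13, and crossed pairings were not run. Leaving out 1 library gave 3 to 6 calls in control, 6 to 8 in Atg5-knockout mice and 0 to 0 in the other comparisons. Signs turned for Spi1 in bone marrow with 12 libraries (0.025), for Gata2 in blood with no filter (-0.012), for Gata1 (0.0053) and Xbp1 (0.016) in blood with the block and for Id2 between control tissues with the block (-0.094), none of them called. Without 1 library the knockout estimate ranged in bone marrow from -0.029 to 0.57 for Zfpm1, -0.064 to 0.058 for Spi1 and -0.17 to 0.017 for Trib1. In blood it ranged from -0.22 to 0.31 for Gata1, -0.21 to 0.26 for Gata2, -0.23 to 0.22 for Cebpe, -0.53 to 0.63 for Xbp1 and -0.37 to 0.39 for Irf8. The tissue estimate ranged in control from -0.45 to 0.077 for Gata1, -0.33 to 0.52 for Zfpm1 and -0.20 to 0.39 for Id2, and in Atg5-knockout mice from -0.054 to 0.31 for Gata1. The difference of the knockout effects ranged from -0.16 to 0.30 for Cebpe, -0.32 to 0.83 for Xbp1 and -0.50 to 0.27 for Irf8. The cause was not tested. Over all genes, the 48 calls in bone marrow became 13 with the fold limit, 192 with DESeq2, 420 with no filter, 23 with the block, 12 with all 12 libraries and 18 to 219 without 1 library, the latter without control bone marrow replicate 1. The 5 in blood became 23, 77, 10 and 16 with DESeq2, no filter, block and 12 libraries, and 2 to 6 without 1 library. Between tissues the 4678 and 6592 calls became 1309 and 1578 with the fold limit. Without 1 library they became 2627 to 5926 in control and 4584 to 7756 in Atg5-knockout mice. Calls over all genes between tissues are not given here for DESeq2, no filter and the block. The counts of the 10 genes in those fits therefore stand without that comparison. For the difference of the knockout effects DESeq2 gave 11 and no filter 119 in place of 0. List counts under these alternatives were added after seeing the data. With 3 libraries a group and 18885052 or more counts in each, differences within the printed intervals could not be told from none.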
